A study of Mus musculus with 8 samples.

Results

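The genes described here are 10 that mark retinal ganglion cells (RGCs) or build their axonal skeleton: *Rbpms*, *Pou4f1*, *Pou4f2*, *Pou4f3*, *Isl2*, *Sncg*, *Thy1* and the neurofilament genes *Nefl*, *Nefm* and *Nefh*. They were chosen by name, with earlier results of these data known, from the 17500 genes of a retinal RNA-seq table. Each of the 10 was among the 16797 genes that passed the filter on low counts. Whole retinas of 4 control mice (M833, M894, M896 and M898) and 4 Rbfox2 KD mice (M893, M901, M902 and M909) were sequenced after poly(A) selection, 1 library per mouse. All were 6 months old on the C57BL/6J background. Rbfox2 KD mice carried 2 floxed copies of *Rbfox2*, a gene of a splicing regulator, and a transgene for a Cre recombinase that tamoxifen activates and that is not specific to RGCs. Controls were heterozygous Rbfox2 fl/+ mice of the same age. The labels put every mouse under tamoxifen for 4 months, whereas the methods describe a short oral course in young adult Rbfox2 KD mice. Whether the sequenced controls received tamoxifen or the oil vehicle is not given in the sources used here.

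RGCs are the output neurons of the retina, and their axons form the optic nerve. They are a small share of retinal cells, so that their RNA in whole retina is read through genes that few other retinal cells express. POU4F and ISL transcription factors establish and keep RGC identity, while the neurofilament light, medium and heavy chains assemble into the filaments that set the calibre of long axons. In whole retina, fewer RGCs, less RNA per RGC and a change in other cells that express these genes cannot be told apart.

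Library totals lay between 160630226 and 211283591 counts, the highest being that of control M833. At these depths even the least abundant of the 10 genes, *Pou4f3*, had 369 to 687 counts per mouse, and 3 counts correspond to at most 0.0187 CPM (counts relative to the library total). *Rbfox2* separated the groups as labelled, with 144 to 157 CPM in controls and 53.6 to 59.4 CPM in Rbfox2 KD mice (log2 fold change -1.41, SE 0.046, Benjamini-Hochberg adjusted p = 5.51e-07 in edgeR). Of the 8 libraries 3 stood apart. M901 and M902 shared one end of the first principal component, which held 40.5% of the variance, and had 277506 and 275967 counts of *Xist* against 312 to 426 in the other mice. Both are Rbfox2 KD mice and no control had a high *Xist* count, so this difference was not balanced between the groups. The sex of the mice is not given in the sources used here. Fits without M901 and M902 are therefore among the alternatives. M909 lay alone on the second component, which held 19.2%. Control M833 did not stand apart on these components but was the lowest mouse for each of the 10 genes, so the group comparisons are given with and without it.

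Levels are given in CPM after TMM normalisation, in the order M833, M894, M896 and M898 for controls and M893, M901, M902 and M909 for Rbfox2 KD mice. *Rbpms* (chromosome 8 of GRCm38, 33782643 to 33929863, minus strand), an RNA-binding protein found in nearly every RGC, had 23.3, 39.1, 39.3 and 41.4 CPM in controls and 37.5, 34.3, 32.1 and 30.6 CPM in Rbfox2 KD mice. The 4 Rbfox2 KD mice lay between M833 and the other 3 controls, so the groups overlapped through M833. M833 is set aside in this description for its low values in these same genes. The share of all genes that would separate without it was not counted. The group means were 35.8 ± 8.37 CPM (SD, n = 4) in controls and 33.6 ± 2.97 CPM (SD, n = 4) in Rbfox2 KD retinas. The log2 fold change of Rbfox2 KD against control was -0.09 (SE 0.16) with an FDR of 0.846, where FDR stands throughout for the Benjamini-Hochberg adjusted p of an edgeR quasi-likelihood fit to all genes tested.

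The 3 POU4F genes encode homeodomain factors that act in overlapping sets of RGCs. *Pou4f1* (chromosome 14, 104461676 to 104467999, minus strand) had 23.7, 38.5, 38.9 and 39.1 CPM in controls and 41.7, 41.9, 36.0 and 30.6 CPM in Rbfox2 KD mice. *Pou4f2* (chromosome 8, 78433010 to 78436645, minus strand), which is needed for early RGC differentiation, had 9.13, 12.5, 13.7 and 13.8 CPM in controls and 13.1, 12.6, 11.2 and 11.2 CPM in Rbfox2 KD mice. *Pou4f3* (chromosome 18, 42394539 to 42397249, plus strand) had 1.77, 2.95, 3.28 and 3.12 CPM in controls and 3.45, 3.56, 3.24 and 2.36 CPM in Rbfox2 KD mice. In all 3 genes M833 was the lowest mouse of 8 and the groups overlapped. For *Pou4f1* the Rbfox2 KD mice lay on both sides of the narrow range of the other 3 controls, and for *Pou4f2* within or below their range. For *Pou4f3*, M893 and M901 lay above the range of these controls, M902 within it and M909 below it. The log2 fold changes were 0.10 for *Pou4f1* (SE 0.16), -0.03 for *Pou4f2* (SE 0.12) and 0.18 for *Pou4f3* (SE 0.20). Their FDR lay between 0.731 and 0.942.

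*Isl2* (chromosome 9, 55538672 to 55546180, plus strand), a LIM homeodomain factor of those RGCs that project to the opposite side of the brain, had 4.92, 7.45, 8.003 and 8.36 CPM in controls and 6.36, 7.33, 6.78 and 6.48 CPM in Rbfox2 KD mice. As for *Rbpms*, each Rbfox2 KD mouse was below the 3 controls other than M833 and above M833, so the groups overlapped. The share of all genes with this order was again not counted. The log2 fold change was -0.09 (SE 0.15, FDR 0.826).

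*Sncg*, which encodes γ-synuclein, a protein of RGC bodies and axons (chromosome 14, 34370274 to 34374789, minus strand), had 54.0, 89.8, 89.99 and 95.3 CPM in controls and 91.97, 96.3, 83.5 and 72.55 CPM in Rbfox2 KD mice. *Thy1*, which encodes a cell surface glycoprotein long used as an RGC marker (chromosome 9, 44043384 to 44048579, plus strand), had 157, 215, 217 and 219 CPM in controls and 215, 232, 201 and 184 CPM in Rbfox2 KD mice. In both genes M901 was the highest mouse and M833 the lowest, and M909 was the lowest Rbfox2 KD mouse. The log2 fold changes were 0.06 for *Sncg* (SE 0.16) and 0.04 for *Thy1* (SE 0.11), with FDR values of 0.898 and 0.90.

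*Nefl* and *Nefm* lie side by side on chromosome 14 and *Nefh* lies on chromosome 11. *Nefl*, the light chain on which the others assemble (68083863 to 68089095, plus strand), had 288, 465, 476 and 487 CPM in controls and 480.4, 505, 452 and 375 CPM in Rbfox2 KD mice. *Nefm*, the medium chain (68082590 to 68124846, minus strand), had 114, 184, 193 and 195 CPM in controls and 188, 194, 168 and 139 CPM in Rbfox2 KD mice. Control M833 and Rbfox2 KD mouse M909 were the 2 lowest mice in both genes. *Nefh*, the heavy chain of mature axons (4938754 to 4948064, minus strand), had 88.1, 131, 131 and 129 CPM in controls and 120.3, 126, 108 and 92.3 CPM in Rbfox2 KD mice. For *Nefh*, unlike *Nefl*, each Rbfox2 KD mouse lay below the 3 controls other than M833 and above M833, so the groups overlapped. As for *Rbpms*, the share of all genes with this order was not counted. The group means were 429 ± 94.2 and 453 ± 56.7 CPM for *Nefl*, 171 ± 38.7 and 172 ± 25.04 CPM for *Nefm*, and 119.9 ± 21.2 and 112 ± 14.9 CPM for *Nefh* (SD, n = 4), controls first. The log2 fold changes were 0.08 for *Nefl* (SE 0.16), 0.01 for *Nefm* (SE 0.16) and -0.10 for *Nefh* (SE 0.13), with FDR values of 0.867, 0.991 and 0.782.

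**Figure D1:**
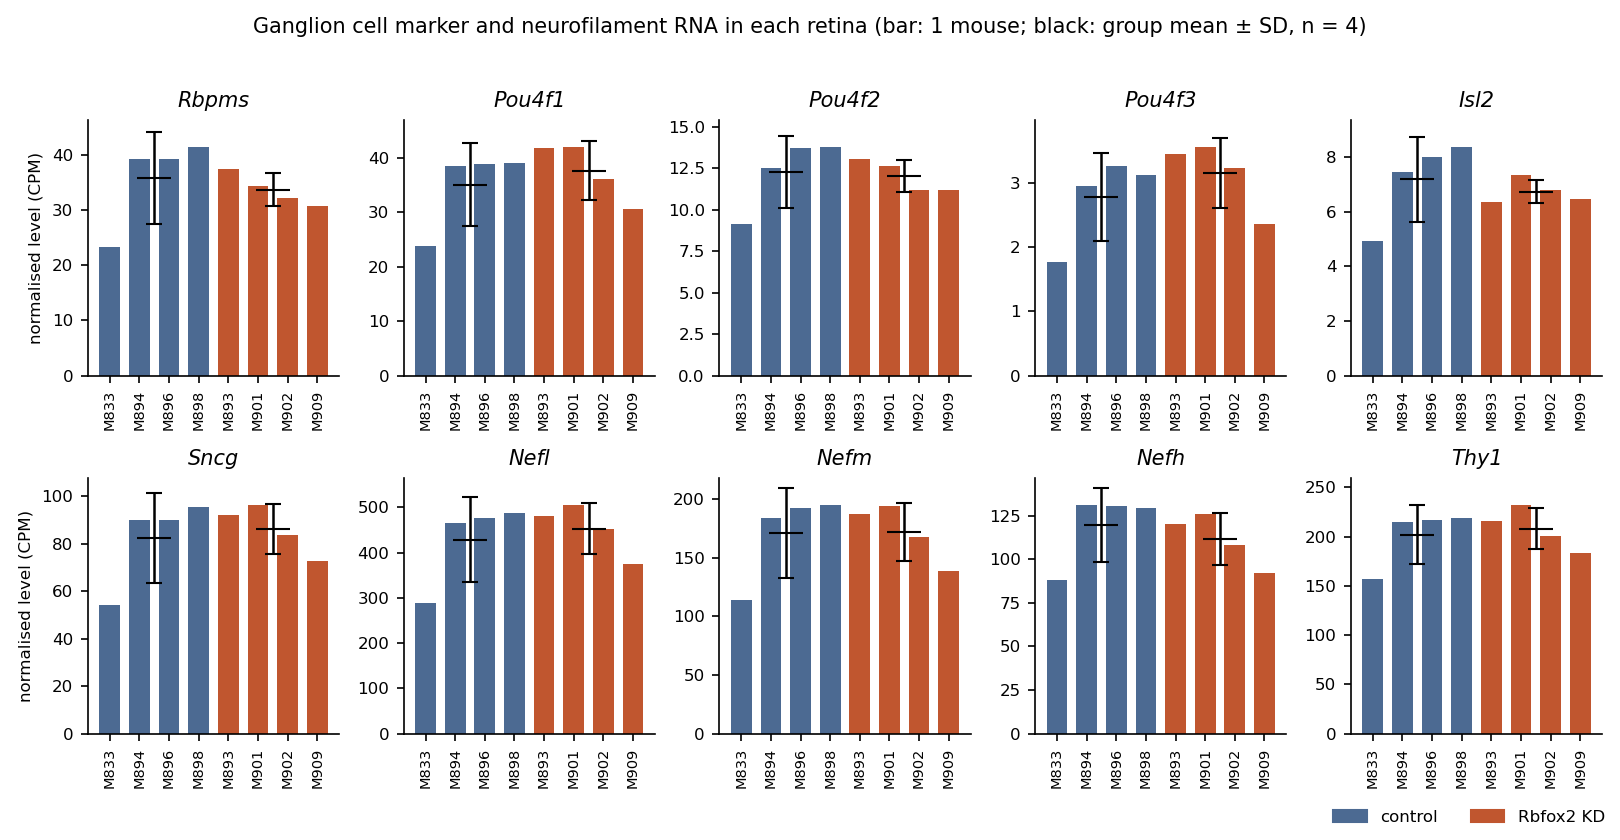
The bars give the level of each of the 10 genes in CPM, 1 bar per mouse, and the black marks give the mean ± SD of the 4 control and the 4 Rbfox2 KD mice. Control M833 is the lowest bar of 8 in every panel, for example 288 CPM for *Nefl* against 375 to 505 CPM in the other 7 mice.

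Of the 10 genes, 0 had an FDR under 0.05, against 0.0655% of all genes tested (11 of 16797). At an unadjusted p under 0.05 there were also 0 of 10, against 13.3% of all genes (6.42% higher and 6.87% lower in Rbfox2 KD retinas). At an FDR under 0.05, DESeq2 gave 0 of 10 against 2.77% of all genes, edgeR's likelihood ratio test 0 of 10 against 0.976%, and limma-voom 0 of 10 against 0.0655%. The groups overlapped in all 10 genes, whereas 7.03% of all genes had groups that did not overlap (3.64% higher and 3.39% lower in Rbfox2 KD retinas). Of the 10 log2 fold changes 6 were positive and 4 were negative, and their median was 0.02, beside 0.00162 over all genes tested. The 95% confidence intervals, of the log2 fold changes reached from -0.44 to 0.26 for *Rbpms* and from -0.20 to 0.28 for *Thy1*, the gene with the narrowest one, so that differences within these limits were not excluded.

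Per length, *Nefl* was the most abundant of the 10 and *Pou4f3* the least, with means over the 8 mice of 221 and 2.59 FPKM, the length-scaled values that the authors deposited. *Thy1* (118 FPKM) and *Sncg* (115 FPKM) followed *Nefl*, and their ranges over mice overlapped, with *Thy1* above *Sncg* in 6 of 8 mice. *Nefm* (53.2 FPKM), *Nefh* (29.0 FPKM), *Rbpms* (13.5 FPKM) and *Pou4f1* (9.58 FPKM) came next, in that order in all 8 mice. *Pou4f2* (3.79 FPKM) and *Isl2* (3.76 FPKM) overlapped, with *Pou4f2* higher in 2 of 8 mice. These levels depend on the length the authors divided by, which the counts put at 2001 bases for *Nefl*, whereas its transcript in GENCODE M21 has 3380 bases.

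Control M833 had between 56.9% (*Pou4f3*) and 72.5% (*Thy1*) of the mean CPM of the other 3 controls in these genes, and 58.4% for *Rbpms*, 59.7% for *Nefm* and 60.6% for *Nefl*. It was the lowest mouse of 8 in 10 of 10 genes, against 11.0% of all genes tested, an ordering that was looked for after the values were seen. A level at or below 72.5% of the other controls was found in 1193 of 16797 genes (7.10%). The other 3 controls lay close together, for example between 465 and 487 CPM for *Nefl* and between 38.5 and 39.1 CPM for *Pou4f1*. Among Rbfox2 KD mice, M909 was the lowest in 8 of the 10 genes, against 31.1% of all genes, with 69.1% of the mean of the other Rbfox2 KD mice for *Pou4f3*, 75.6% for *Nefm* and 94.96% for *Isl2*. The exceptions were *Pou4f2*, with M902 lowest, and *Isl2*, with M893 lowest. The mean log2(CPM + 1) of the 10 genes relative to the control mean was -0.48 in M833 and between 0.12 and 0.19 in the other controls. It was -0.18 in M909 and between 0.00 and 0.17 in the other Rbfox2 KD mice. M833 and M909 were thus low in opposite groups. Some long or unspliced RNAs, picked after their values were seen, were highest in the same mice. The nuclear RNA *Malat1* had 1278 CPM in M833 and 1361 CPM in M909 against 504 to 910 CPM in the other 6 mice. The ribosomal RNA precursor *Rn45s* had 10626 and 8113 CPM against 3846 to 7716 CPM, and *Macf1*, which has a very long transcript, had 774 and 884 CPM against 590 to 746 CPM. Not all long noncoding RNAs showed this order. *Meg3* was highest in M894 (976 CPM), with 744 CPM in M833 and 659 CPM in M909. *Snhg11* was also highest in M894 (852 CPM), with 607 CPM in M833 and 568 CPM in M909. The part of these RNAs in the low levels of the 10 genes was not tested.

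Other genes found across RGCs were low in the same mice. Of 14 such genes, M833 was the lowest mouse in 13, the exception being *Isl1*. Not all of the 14 are confined to RGCs. Bipolar and amacrine cells also express *Isl1*, and the authors used EBF1 as a marker of amacrine cells. M833 was the lowest mouse for *Ebf1*, with 36.3 CPM. The vesicular glutamate transporter gene *Slc17a6* had 45.5 CPM in M833 and 69.4 to 72.8 CPM in the other controls. *Rbpms2*, a paralogue of *Rbpms*, had 18.4 CPM in M833 and 30.3 to 31.2 CPM in the other controls. *Tubb3*, the neuronal β-tubulin gene, had 91.8 CPM and 115 to 120 CPM, respectively. *Stmn2*, a microtubule regulator of growing axons, had 56.3 CPM in M833 and 72.6 to 76.4 CPM in the other controls, and *Gap43* had 24.3 CPM and 28.6 to 29.6 CPM. The median log2 difference of M833 from the other controls was -0.33 over the 14 genes and -0.64 over the 10, beside 0.000404 over all genes tested. Genes of RGC subtypes were mixed, with M833 lowest in 8 of 20. Among them *Irx4*, *Spp1* and *Tfap2d* had 5.597, 8.31 and 2.28 CPM in M833 and at least 9.33, 14.1 and 4.19 CPM in each other control, whereas *Mmp17* and *Jam2* were as high in M833 as in the other controls. *Opn4*, the melanopsin gene of intrinsically photosensitive RGCs, had 4.13 CPM in M833, 4.999 to 6.38 CPM in the other controls and 4.94 to 6.26 CPM in Rbfox2 KD mice, with a log2 fold change of 0.04 (SE 0.15, FDR 0.930).

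The marker lists of other retinal neurons showed no such order. M833 was the lowest mouse in 0 of 8 amacrine, 0 of 6 horizontal, 0 of 6 photoreceptor and 0 of 6 bipolar cell markers. The median log2 difference from the other controls lay between 0.04 and 0.08 in these 4 lists. The summed level of the amacrine markers was 1538 CPM in M833, the highest control, against 1457 CPM in the lowest control. Displaced amacrine cells share the ganglion cell layer with RGCs, and *Chat*, which marks the starburst amacrine cells there, had 17.1 CPM in M833 and 15.3 to 18.04 CPM in the other controls. Muller glia markers had M833 lowest in 0 of 5 and astrocyte markers in 1 of 5, *S100b* (6.08 CPM in M833 and 8.08 to 10.04 CPM in the other controls). Of 6 oligodendrocyte markers 4 were among the genes tested. *Mbp* had 41.9 to 46.9 CPM and *Mag* 0.322 to 0.446 CPM in all mice, and M833 was the lowest mouse in 2 of the 4. Markers of pericytes and fibroblasts, and of the anterior eye and pigment epithelium, differed between mice of a group. The anterior eye and pigment epithelium list was low in M833 (-0.42 on the log2(CPM + 1) scale against the control mean) and also in control M896 (-0.39), where the 10 genes were high. *Krt5* had 24.7 CPM in M909 and at most 2.47 CPM elsewhere, and *Best2* had 0.150 and 0.208 CPM in M901 and M902 against 4.14 to 16.03 CPM in the other 6 mice. What part these tissues had in the levels of the 10 genes was not tested.

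**Figure D2:**
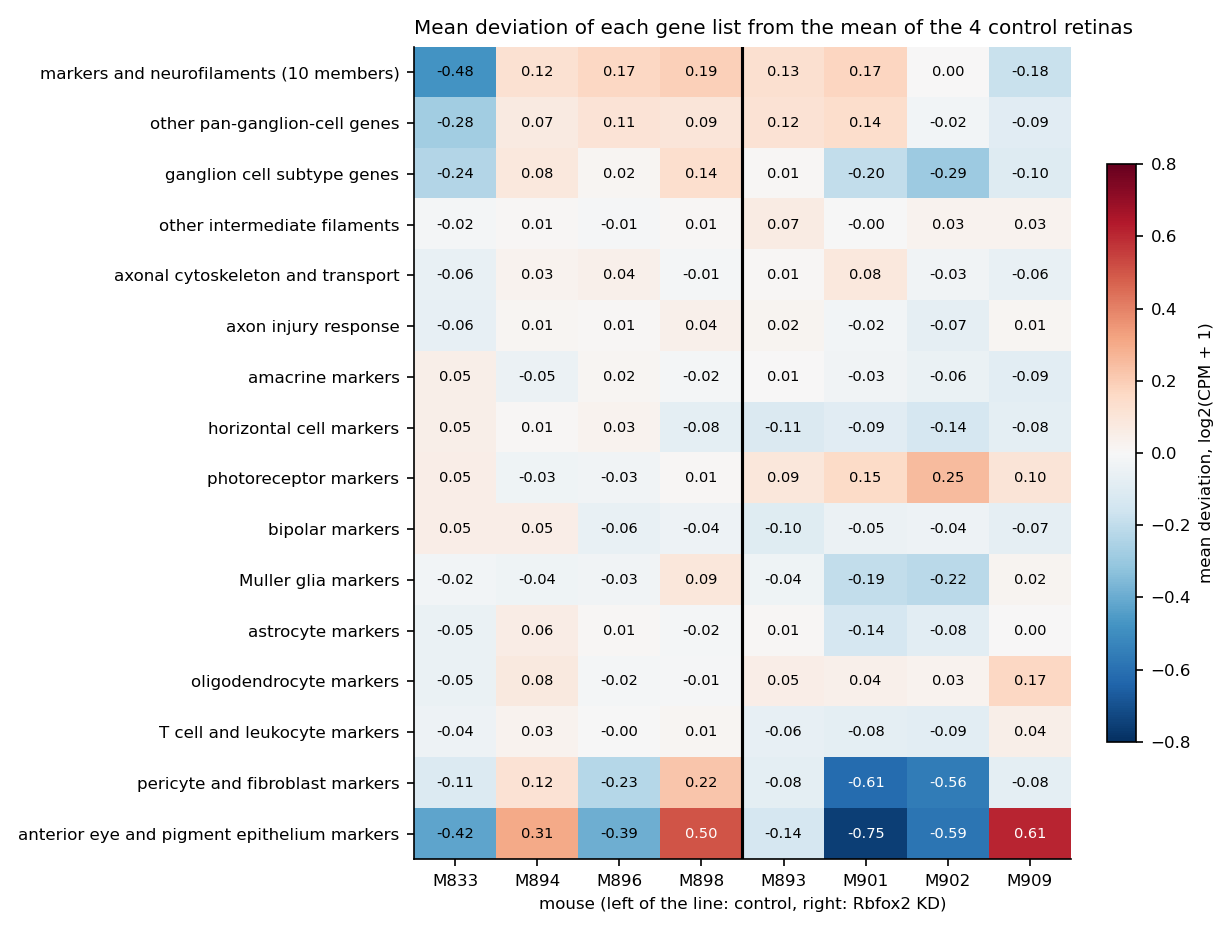
Each cell gives the mean deviation of a gene list from the mean of the 4 controls on the log2(CPM + 1) scale, with lists as rows and mice as columns. The 10 genes are at -0.48 in M833 and the other genes found across RGCs at -0.28, while amacrine, horizontal, photoreceptor and bipolar cell markers are at 0.05 each.

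The group difference of several genes depended on M833. Without M833, the log2 fold change of *Rbpms* was -0.25 (SE 0.068, FDR 0.140). That of *Isl2* was -0.24 (SE 0.076, FDR 0.180) and that of *Nefh* was -0.23 (SE 0.091, FDR 0.248). Their unadjusted p-values from this test were 0.00484, 0.0118 and 0.0336, in a comparison where 17.6% of all genes had an unadjusted p under 0.05. M833 was singled out for its low values in these same genes, and leaving out the lowest control raises the control mean. These p-values are therefore a description and not an independent test. The log2 fold changes of *Pou4f1*, *Sncg*, *Nefl*, *Nefm* and *Thy1* turned from positive to negative without M833 and lay between -0.15 and -0.05, and that of *Pou4f3* came to 0.01. With 35 of 16887 genes called (0.207%), 0 of the 10 had an FDR under 0.05 without M833. With both M833 and M909 left out, the low mouse of each group, the log2 fold change was -0.21 for *Rbpms*, -0.22 for *Isl2* and -0.15 for *Nefh*. Again 0 of the 10 had an FDR under 0.05, against 1.37% of all genes, and these 3 had an unadjusted p under 0.05, against 22.6%.

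A fit with the per-mouse mean of the 14 other RGC genes as a covariate was added after the values were seen. The covariate was -0.31 in M833, -0.11 in M909 and between -0.04 and 0.13 in the other mice. With it, the SE of *Nefl* fell from 0.16 to 0.043 and that of *Thy1* from 0.11 to 0.029. The log2 fold changes were then 0.04 for *Nefl*, 0.01 for *Thy1*, 0.02 for *Sncg* and 0.05 for *Pou4f1*. For *Nefh* the value was -0.15 (SE 0.033, unadjusted p = 0.00156, FDR 0.117), and for *Rbpms* it was -0.12 (SE 0.061, FDR 0.372). Here too 0 of the 10 had an FDR under 0.05, against 0.214% of all genes.

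**Figure D3:**
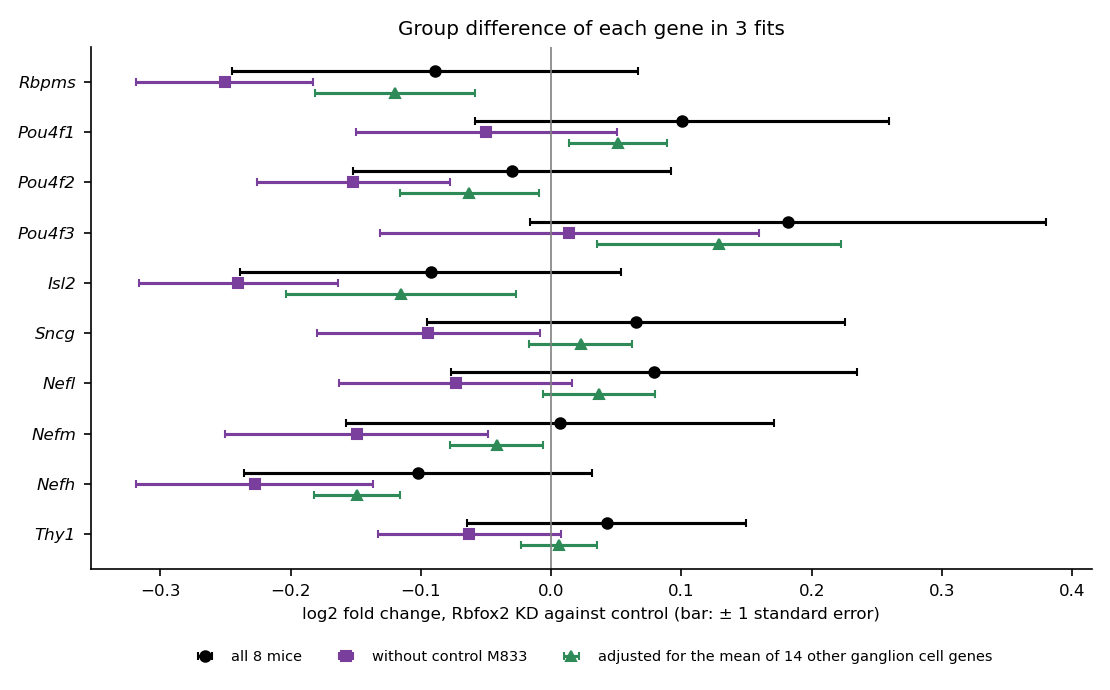
Points give the log2 fold change of Rbfox2 KD against control retinas for each of the 10 genes with 1 SE on either side, in the fit of all 8 mice, in the fit without M833 and in the fit adjusted for the mean of 14 other RGC genes. Without M833 every point moves to the left, to -0.25 for *Rbpms* and -0.23 for *Nefh*, and the covariate shortens the bars, to 0.029 for *Thy1*.

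The 10 genes varied together across the 8 retinas. Over the 45 pairs, Pearson's r of log2(CPM + 1) lay between 0.746 (*Pou4f3* and *Isl2*) and 0.995 (*Sncg* and *Nefl*), with a median of 0.914. Spearman's rho lay between 0.262 and 1, with a median of 0.786. By exact permutation over 40320 orders of the mice with Benjamini-Hochberg adjustment over the 45 pairs, all 45 values of r had an adjusted p under 0.05 (the largest was 0.0435) but only 22 of the 45 values of rho did (the largest was 0.536). An r at or above 0.746 was found in 3.20% of all pairs of genes tested, and one at or above 0.914 in 0.238%. The relation rested in part on M833. Without it the 45 values of r lay between 0.229 and 0.981 with a median of 0.831. Without the 2 mice farthest from the median of the first gene of a pair, M833 with M909, M902 or M898, r lay between -0.474 and 0.949 with a median of 0.680, and 41 of 45 were positive. As deviations from the group means, which remove the group difference, r lay between 0.844 and 0.997 with a median of 0.964. These deviations still hold M833 and M909, the low mouse of each group. With both left out of all pairs, the median r of the levels themselves was 0.591.

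*Sncg*, *Nefl*, *Nefm*, *Thy1* and *Pou4f1* formed the tightest set. *Sncg* and *Nefl* ranked the 8 mice in the same order (r = 0.995, rho = 1, and r = 0.939 without M833 and M909), and each was the nearest of the other 16796 genes to the other. The nearest gene to *Pou4f1* was *Nefl* (r = 0.991). The pair *Nefl* and *Nefm* had r = 0.986, and 0.977 without M833, and *Nefl* and *Thy1* had 0.986, and 0.962 without M833. *Rbpms* was nearest within the list to *Pou4f2* (r = 0.970, and 0.911 without M833) and less like *Pou4f3* (0.811, and 0.398 without M833). *Isl2* was the least like the others, with a mean r of 0.849, and without M833 its r was 0.345 with *Pou4f1* and 0.229 with *Pou4f3*. *Nefh* had r = 0.90 with *Nefl* and 0.955 with *Nefm* over all mice, and 0.984 and 0.990 as deviations from the group means.

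**Figure D4:**
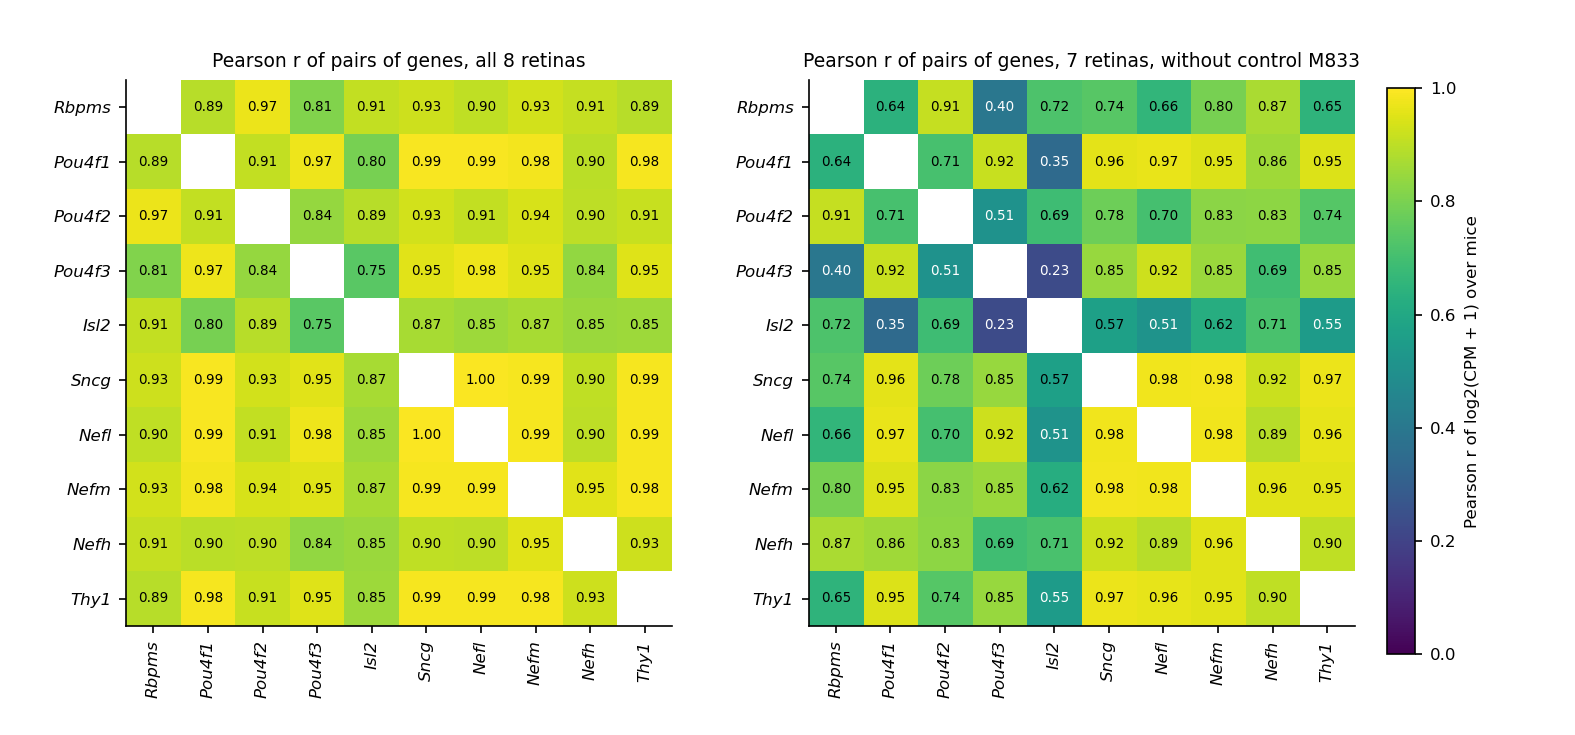
Both panels give Pearson's r of log2(CPM + 1) for each pair of the 10 genes, over all 8 mice on the left and over 7 mice without control M833 on the right. The block of *Sncg*, *Nefl*, *Nefm* and *Thy1* keeps values of 0.955 or more without M833, while *Isl2* falls to 0.229 with *Pou4f3*.

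Outside the list, the 8 genes whose log2(CPM + 1) followed the mean standardised profile of the 10 genes most closely were *Uchl1*, *Inpp5a*, *Tusc5*, *Stk32a*, *Nrn1*, *Clec2l*, *Nell2* and *Cplx1*, with r between 0.986 and 0.998 over the 8 mice. *Uchl1*, a ubiquitin hydrolase abundant in neurons, had 113, 154, 156 and 159 CPM in controls and 154, 157, 141 and 132 CPM in Rbfox2 KD mice. *Inpp5a*, an inositol phosphate phosphatase, had a narrower range, from 53.4 CPM in M833 to 61.5 CPM in M896. *Nrn1*, the neuritin gene, had 35.2 CPM in M833, 46.3 CPM in M909 and 50.6 to 58.2 CPM in the other 6 mice. *Cplx1*, a regulator of synaptic vesicle release, had 111 CPM in M833, 134 CPM in M909 and 143 to 167 CPM elsewhere. None of the 8 had an FDR under 0.05, their FDR lying between 0.931 and 0.989.

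Ratios of 2 genes within a library do not depend on its depth or scaling. *Nefh* relative to *Nefl* was 0.305, 0.283, 0.275 and 0.266 in controls and 0.250, 0.249, 0.239 and 0.246 in Rbfox2 KD mice, as ratios of counts. Each Rbfox2 KD mouse was below each control, including M833, which had the highest ratio. The mean log2 ratio was -2.02 ± 0.030 (SD, n = 4) in Rbfox2 KD and -1.83 ± 0.085 (SD, n = 4) in control retinas, a difference of -0.19 (p = 0.0286 by exact two-sided permutation, which is the smallest p for 4 mice against 4, and 0.0429 after Benjamini-Hochberg adjustment over 3 ratios). *Nefm* relative to *Nefl* was 0.394, 0.395, 0.404 and 0.401 in controls and 0.390, 0.385, 0.372 and 0.370 in Rbfox2 KD mice. The groups again did not overlap, though M893 and M833 were close, and the log2 difference was -0.07 (p = 0.0286 by exact permutation, 0.0429 adjusted). *Nefh* relative to *Nefm* was 0.774, 0.715, 0.679 and 0.663 in controls and 0.641, 0.649, 0.643 and 0.666 in Rbfox2 KD mice. Here M909 lay above control M898, and the log2 difference was -0.12 (p = 0.0571 by exact permutation, 0.0571 adjusted).

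With each mouse left out in turn, the difference in *Nefh* relative to *Nefl* stayed between -0.22 and -0.16. That in *Nefm* relative to *Nefl* stayed between -0.09 and -0.06. Groups that do not overlap with all mice cannot overlap once a mouse is left out, so these fits are no further test of the separation. With 3 mice against 4 the smallest p is 0.0571. A ratio to *Nefl* that did not overlap between groups was found for 208 of 16796 genes (1.24%), and in 183 of them (1.09%) it was lower in Rbfox2 KD retinas. Among the 9 other genes of the list this held for 2, *Nefm* and *Nefh*. In 10 of the 45 pairs of the list the ratio did not overlap between groups, beside 6.96% of all pairs of genes tested, and pairs that share a gene are not independent. Of these 10 pairs 8 involved *Nefm* or *Nefh* as the lower gene in Rbfox2 KD retinas against *Nefl*, *Sncg*, *Pou4f1* or *Pou4f3*. The remaining pairs were *Sncg* over *Rbpms* and *Thy1* over *Nefh*, both higher in Rbfox2 KD retinas. Relative to the mean of all 10 genes in the same mouse, *Nefh* was lower in each Rbfox2 KD mouse (log2 value 1.21 to 1.29) than in each control (1.31 to 1.47), and *Nefl* was higher (3.230 to 3.31 against 3.18 to 3.228), which is nearly a tie. On this scale 1.13% of all genes tested did not overlap between groups. *Nefm* overlapped. The neurofilament genes were set as the ratios to be tested with earlier results of these data known, and the ratios over other pairs were not tested.

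**Figure D5:**
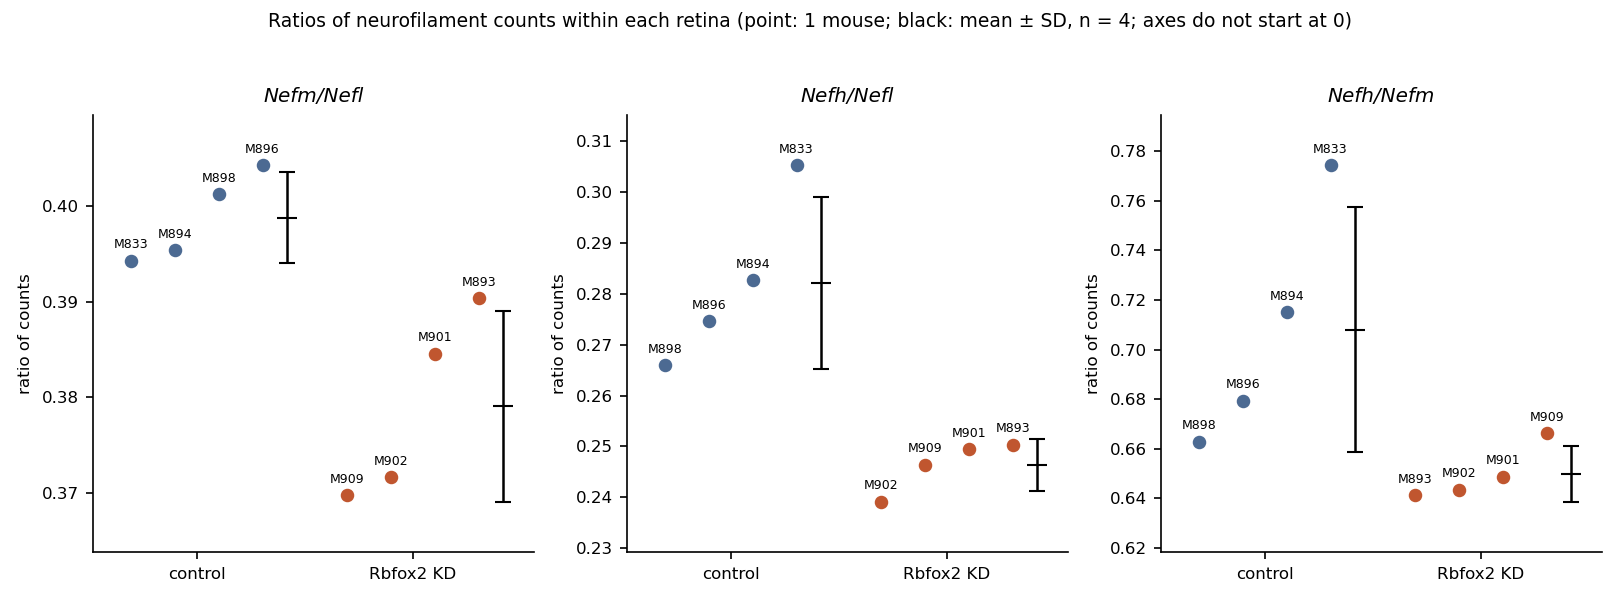
Each point is the ratio of the counts of 2 neurofilament genes in 1 mouse, with controls on the left and Rbfox2 KD mice on the right of each panel and the mean ± SD of 4 mice beside them. The groups do not overlap for *Nefm* over *Nefl* (0.394 to 0.404 against 0.370 to 0.390) and *Nefh* over *Nefl* (0.266 to 0.305 against 0.239 to 0.250) but do for *Nefh* over *Nefm*.

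A limit of the ratios with *Nefm* and *Nefl* is their overlap on chromosome 14. An alternative *Nefm* transcript (Nefm-202) has an exon from 68082590 to 68084970 that covers 1108 bases of the first *Nefl* exon (68083863 to 68085009) on the other strand. Whether fragments were counted by strand is not given in the sources used here, and without strand the reads of that stretch cannot be told apart. *Nefh*, on chromosome 11, has no such overlap with either gene. Which retinal cells the neurofilament RNA came from was not tested.

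Rbfox proteins bind the RNA element UGCAUG, written TGCATG in DNA letters, in introns to direct splicing and in 3′ UTRs, where it has been tied to RNA stability. The element was searched on the transcript strand of the GENCODE M21 transcript that carries the RefSeq identifier of each gene in the table. It was present in 7 of the 10 spliced transcripts and in 53.1% of the 13809 transcripts searched. *Nefl* held 2 copies and *Nefm* held 3, all in the 3′ UTR of the last exon, and *Nefh* held 0, while 57.9%, 57.3% and 66.4% of transcripts within 10% of the same length held at least 1. Whether the element bears on the neurofilament ratios was not tested. The windows around the neurofilament copies are shown as the only copies of the element in the 3 neurofilament transcripts. They run 5′ to 3′ on the transcript strand of GRCm38, with the element in capitals, at chr14:68087655-68087684 and chr14:68088546-68088575 (*Nefl*, plus strand) and at chr14:68119973-68120002, chr14:68119886-68119915 and chr14:68119835-68119864 (*Nefm*, minus strand):
Nefl copy 1: gctgccagcctgTGCATGgtccatgcttat
Nefl copy 2: ttggtattgctcTGCATGtcttaattggta
Nefm copy 1: acaatttcaaaaTGCATGtgattgacagct
Nefm copy 2: atatgagggaacTGCATGcaagctcagggt
Nefm copy 3: ggggaattcaaaTGCATGatcgtgtatgta

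Among the other genes, *Rbpms* held 3 copies, 1 in the coding sequence and 2 in the 3′ UTR. *Isl2* held 2, 1 in each UTR, *Pou4f1* and *Thy1* held 1 in the 3′ UTR, *Pou4f2* held 1 in the coding sequence, and *Pou4f3* and *Sncg* held 0. Introns were not searched. A match of letters is not a binding site.

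Other genes of filaments and axons were described by lists. Of 9 other intermediate filament genes, 0 had an FDR or an unadjusted p under 0.05, and their median log2 fold change was 0.05. *Ina*, the α-internexin gene that copolymerises with neurofilaments in central axons, had 93.2 CPM in M833, 115 to 117 CPM in the other controls and 98.8 to 125 CPM in Rbfox2 KD mice, so it was low in the same mice. *Prph*, the peripherin gene, had 2.67 CPM in M833, 3.39 to 4.11 CPM in the other controls and 3.33 to 4.34 CPM in Rbfox2 KD mice. *Vim* and *Gfap*, the filament genes of Muller glia and astrocytes, followed the profile of the 10 genes little or inversely over the 8 mice (r = 0.09 and -0.63), with *Gfap* at 11.03 CPM in M833 and 7.19 to 9.48 CPM in the other controls. *Vim* had a log2 fold change of -0.14 (SE 0.078) and *Gfap* one of 0.15 (SE 0.14), with FDR values of 0.449 and 0.669.

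Of 16 genes of the axonal cytoskeleton and transport, 0 had an unadjusted p under 0.05, and their log2 fold changes lay between -0.09 and 0.11. *Kif5a*, a kinesin that carries neurofilaments, had 316 CPM in M833, 394 to 432 CPM in the other controls and 319 to 387 CPM in Rbfox2 KD mice. *Map1a* showed the same order with 306, 386 to 412 and 331 to 386 CPM. *Map2*, a dendritic protein that amacrine and other neurons also make, was high in M833 instead, with 476 CPM against 413 to 429 CPM in the other controls. Of 16 genes of the axon injury response 15 were among the genes tested. None had an FDR under 0.05, while 2 had an unadjusted p under 0.05, both lower in Rbfox2 KD retinas: *Ecel1*, with a log2 fold change of -0.54 (SE 0.19, FDR 0.296), and *Bcl2l11*, with -0.12 (SE 0.053, FDR 0.373). *Atf3*, a transcription factor induced in injured RGCs, had 9.19, 8.14, 9.31 and 10.4 CPM in controls and 10.1, 9.12, 9.74 and 8.27 CPM in Rbfox2 KD mice, with no difference beyond the spread. M833 was the lowest mouse in 4 of the 15 genes. These were *Jun* (46.5 CPM against 50.02 to 58.4 CPM in the other 7 mice), *Gal*, *Cdkn1a* and *Chac1*, the last 3 at 50.5%, 61.4% and 70.04% of the mean of the other controls. M909 was the lowest mouse in *Sox11*, with 2.25 CPM.

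The counts of genes with an unadjusted p under 0.05 stood beside 13.3% of all genes tested. They were 2 of 15 for axon injury, 2 of 14 for other genes found across RGCs and 3 of 20 for RGC subtypes. Some lists of other cells, of 5 to 8 genes each, had larger shares. Of photoreceptor markers 3 of 6 were higher, and 3 of 6 bipolar, 2 of 5 Muller glia and 2 of 6 pericyte and fibroblast markers were lower. Of horizontal cell markers 1 of 6 was higher and 1 lower, and of anterior eye and pigment epithelium markers 2 of 8 were higher and 2 lower. The amacrine, astrocyte, oligodendrocyte and leukocyte lists had 0. Of the 14 other genes found across RGCs, 0 had an FDR under 0.05. *Isl1* was lower in Rbfox2 KD retinas without overlap, with 66.6, 69.6, 65.6 and 69.1 CPM in controls and 60.3, 59.3, 61.6 and 56.99 CPM in Rbfox2 KD mice (log2 fold change -0.19, SE 0.037, FDR 0.116). With DESeq2, which called 2.77% of all genes tested, the adjusted p of *Isl1* was 0.000929. In the other 17 alternative fits it lay between 0.0610 (likelihood ratio test) and 0.496 (without M901 and M902). *Chrnb3*, a nicotinic receptor subunit of RGCs, had a log2 fold change of 0.19 (SE 0.084, FDR 0.363), and its partner *Chrna6* had 0.17 (SE 0.096, FDR 0.480). Of 20 subtype genes tested, 0 had an FDR under 0.05 and 3 had an unadjusted p under 0.05. *Jam2* had a log2 fold change of 0.13 (SE 0.037), *Igf1* one of -0.15 (SE 0.047) and *Tbx20* one of -0.39 (SE 0.14), with FDR values between 0.221 and 0.300. *Penk* was at 7.58 and 6.99 CPM in M901 and M902 and at 49.6 to 134 CPM in the other 6 mice. In all the lists of retinal and other cell types, *Calb1* alone had an FDR under 0.05. This calcium buffer gene, listed for horizontal cells and also made by amacrine cells and some RGCs, had 78.0, 73.9, 77.3 and 75.7 CPM in controls and 56.8, 60.5, 57.9 and 56.3 CPM in Rbfox2 KD mice (log2 fold change -0.40, SE 0.036, FDR 0.00341). Without M901 and M902 its log2 fold change was -0.43 with an FDR of 0.0501, and in the other 17 alternative fits its FDR was under 0.05. M833, the lowest mouse in the 10 genes, was the highest in *Calb1*, whereas M909 was again the lowest Rbfox2 KD mouse.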

How the data were processed

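Poly(A)-selected RNA of whole retinas from 4 control and 4 Rbfox2 KD mice was sequenced, 1 library per mouse. Groups were taken from the genotype labels. The authors aligned paired reads to mm10 with STAR, kept uniquely mapped reads, summed fragments over genes with HTSeq, and deposited these raw counts as 1 table. The deposited FPKM values are these counts scaled by the authors to gene length and library size and were used here only to order the genes by level. The table also holds adjusted counts, fold changes, p-values and FDR of the authors' own comparison, which were not used. The methods mention RefSeq as well as Ensembl gene models, and the strand setting of the counting is not given in the sources used here.

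The raw counts were analysed in R 4.3.3 with edgeR 4.0.16. Its filterByExpr function retained 16797 of 17500 genes, TMM gave the scaling, and a quasi-likelihood test without covariates, tested on simulated data, gave the p-values. The false discovery rate (FDR) is the p-value after Benjamini-Hochberg adjustment over all genes tested. Standard errors were derived from the log2 fold change and its F statistic. Correlations and list profiles used log2(CPM + 1), and ratios used counts with 0.5 added. Permutation tests were exact and two-sided. The alternatives comprised limma-voom (limma 3.58.1), DESeq2 1.42.0, the likelihood ratio test of edgeR, upper-quartile scaling, the table without a filter, a minimum of 10 counts per library, 1 surrogate variable (sva 3.50.0), each mouse left out in turn, M901 and M902 left out, and, chosen after the values were seen, M833 and M909 left out and the mean of other RGC genes as a covariate. Each mouse is 1 animal. The depth of 160630226 to 211283591 counts was not varied here, and intervals cover the spread between mice.

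All 10 genes of the list were named, with *Rbfox2*, genes of the other lists with an FDR under 0.05 or otherwise up to 4 a list with the lowest p, and the 8 genes whose profile was most like that of the 10. Further genes of the lists were named after their values were seen, to show the mice that were low. The 10 genes and the lists were chosen with earlier results of these data known. Positions and transcripts are from GENCODE M21 (GRCm38, the assembly of mm10). Protein sequences and intronic splicing were not analysed here.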

Additional observations from a re-analysis of the deposited data

Results flagged for a closer look

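In 7 of the 10 genes control M833 lay far from the other controls, by its gap to the nearest control divided by the range of the group. This quotient was 0.875 for *Rbpms*, 0.961 for *Pou4f1*, 0.867 for *Sncg*, 0.889 for *Nefl*, 0.858 for *Nefm*, 0.955 for *Nefh* and 0.939 for *Thy1*. M833 was the low mouse each time. Of 28 groups of 4 mice examined, 7 had such a mouse where chance gives 1.4, but the 10 genes vary together, so these are not 7 separate cases. No Rbfox2 KD mouse and no neurofilament ratio stood out in this way. M833 also had high levels of *Malat1* (1278 CPM against 504 to 910 CPM in the other controls) and *Rn45s* (10626 CPM against 3846 to 6760 CPM), and their part in its level of the 10 genes was not tested.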

How the results depend on the processing

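No paired analysis was possible because the mice carry individual numbers that the groups do not share. Of the 10 genes, 0 had an FDR under 0.05 in all 18 alternative fits, with the lowest FDR at 0.109 for *Rbpms* and 0.117 for *Nefh*. The number of all genes with an FDR under 0.05, 11 as reported, was 465 with DESeq2, 164 with the likelihood ratio test, 5 with 1 surrogate variable, 1 without M901 and M902, 229 without M833 and M909, 36 with the covariate, and between 5 (without M896) and 35 (without M833) with 1 mouse left out. In the other lists 1 gene passed as reported, 8 with DESeq2 (*Isl1* and *Calb1* among them), 2 with the likelihood ratio test and 0 without M901 and M902, where *Calb1* was at -0.43 (FDR 0.0501).

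Log2 fold changes changed sign as follows, none with an FDR under 0.05, and the cause was not tested. With 1 surrogate variable *Rbpms* was at 0.0391 and *Pou4f2* at 0.0555. Without M901 and M902 *Sncg* was at -0.00429, *Nefl* at -0.00862, *Nefm* at -0.0751 and *Thy1* at -0.0209. Without M833 and M909 *Sncg* was at -0.0204, *Nefm* at -0.0580 and *Thy1* at -0.00741. *Nefm* was at -0.00258 with upper-quartile scaling and at -0.0418 with the covariate. With 1 mouse left out the values ran from -0.0499 to 0.187 for *Pou4f1*, -0.152 to 0.0302 for *Pou4f2*, -0.0944 to 0.143 for *Sncg*, -0.0732 to 0.160 for *Nefl*, -0.149 to 0.0973 for *Nefm* and -0.0629 to 0.0976 for *Thy1*, the lowest in each case without M833.

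The log2 difference of *Nefm* over *Nefl* was -0.0699 without M901 and M902 (exact p = 0.133), -0.0671 without M833 and M909 (exact p = 0.10) and -0.0877 to -0.0616 with 1 mouse left out. That of *Nefh* over *Nefl* was -0.182, -0.156 and -0.222 to -0.156, respectively. These designs cannot reach p under 0.05. The median r of the 45 pairs was 0.786 as Spearman's rho, 0.974 without M901 and M902, 0.591 without M833 and M909, and between 0.831 (without M833) and 0.947 (without M901) with 1 mouse left out. Depth was not varied, so its effect on these values was not tested.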
